A study of Rattus norvegicus with 12 samples.

Results

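The acute phase response is a change in the secreted proteins made during inflammation, and complement is the cascade of serum proteins that tags targets for clearance. Expression of 9 rat genes of these classes (C3, A2m, Hp, Orm1, C1qb, Cd59, Agt, Serpina3n and Lcn2) was measured in mixed glial cultures given cytokines. The genes were chosen for their responses to these mixtures, as log2 signals of treated arrays minus the control of the same experiment. All 9 of 9 were found, 8 by the symbol in the array annotation and Cd59 through a RefSeq synonym (Cd59b), out of 4736 genes named by a probe set with 1 symbol. They are read by 16 probe sets (a probe set is the group of short probes that gives 1 signal): 6 for A2m, 2 each for C3 and C1qb, and 1 for each of the others.

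Cultures came from neonatal rat brain by the shake-off technique and were kept in defined medium with 2 percent serum. In each of 3 separate experiments 1 culture received more medium (control) and the others a cytokine mixture for 6 hours, each cytokine at 10 ng/ml, so that 12 RG-U34A arrays were used. By the sample labels, Th1 cultures received TNF-a and interferon-g with IL-2 and g-CSF. M/M (monocyte/macrophage) cultures received TNF-a, IL1b, IL1a and IL-12p40. Th2 cultures received porcine TGF-b1 with G-CSF, IL-10 and IL-5. The methods also place IL-6 in the M/M mixture and IL-4 in the Th2 mixture, so which of these the cultures received is not settled. The control is medium alone, and each array holds RNA of all cells of a culture, in which fewer cells of a type and less RNA per cell cannot be told apart.

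In the liver, the acute phase genes are driven by IL-1 and IL-6 through NF-kappaB, C/EBP and STAT factors. In brain, microglia are a main source of C1q, and reactive astrocytes are known for C3, Serpina3n and Lcn2. C3 is the protein on which the complement pathways converge, and Cd59 is a membrane protein that blocks the last step, the membrane attack complex.

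Markers of the expected glia were present. The brighter part of the array, above the median probe set by mean log2 signal, held 5 of 6 astrocyte genes (Gfap was not analysed here), 6 of 6 oligodendrocyte genes, 3 of 3 precursor genes and 3 of 5 microglial genes. It also held 5 of 5 genes of fibroblasts and meninges, whereas it held 0 of 5 neuronal, 0 of 3 endothelial and 0 of 2 neutrophil genes. Of the liver list 2 of 6 lay there. Ttr, shared with choroid plexus, was among the brightest genes, with control signals of 1663, 1495 and 368 at rc_AA945169_g_at. The summed signal of the microglial genes was between 562 and 1313 in controls and between 699 and 1337 (Th1), 798 and 1312 (M/M) or 878 and 1410.3 (Th2) in treated cultures, so the groups overlapped. The part of culture makeup in the values below was not tested. Median signals were between 24.5 and 61.0 over the 12 arrays. Over all 8740 probe sets the median log2 ratio to control was 0.14 (Th1), 0.33 (M/M) and 0.19 (Th2). These values were uneven over experiments. The control median was 59.1 beside 57.0 to 60.9 in treated arrays of experiment 1, and 38.4 beside 56.0 to 61.0 in experiment 2. In experiment 3 it was 26.9, beside 24.5 (Th1), 42.2 (M/M) and 29.1 (Th2). Values are given unscaled, and where stated with each array centred on its own median log2 signal, which removes these differences in median.

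In experiment 3 the array labelled Th1 did not resemble Th1 of the other experiments. The array labelled Th2 correlated more with M/M than with Th2, and the array labelled M/M more with Th1 than with M/M. Across the 4370 brighter probe sets, the centred log2 ratios to control of experiments 1 and 2 correlated at 0.414 (Th1), 0.528 (M/M) and 0.321 (Th2). Between mixtures, M/M of experiment 1 correlated with Th1 of experiment 2 at 0.467, and Th1 of experiment 1 with M/M of experiment 2 at 0.336. The array labelled Th1 in experiment 3 correlated with Th1 of experiments 1 and 2 at -0.112 and -0.051. The array labelled Th2 in experiment 3 correlated at 0.19 and 0.138 with Th2, and at 0.59 and 0.385 with M/M of those experiments. The array labelled M/M in experiment 3 correlated with M/M at 0.51 and 0.306. With Th1 it correlated at 0.587 and 0.375, higher than with its own label in both experiments. The M/M arrays of experiments 1 and 2 instead correlated more with each other (0.528) than with Th1 (0.467 and 0.336). All arrays kept their labels here. The log2 fold changes are also given without experiment 3, while correlations between genes use all 12 arrays.

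**Figure D1:**
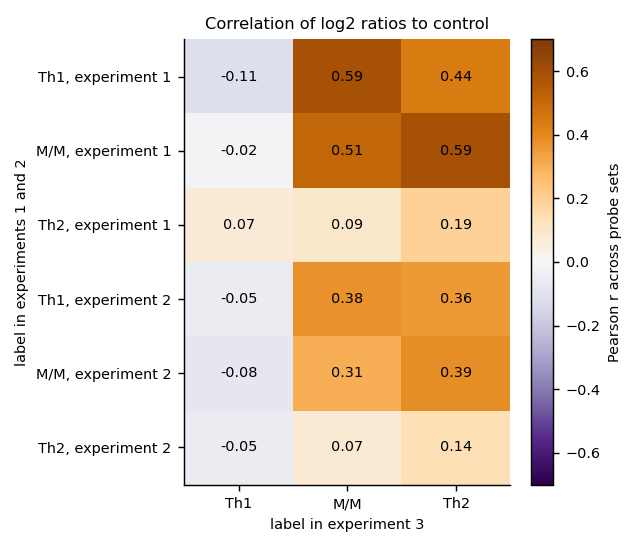
Pearson correlation, across 4370 probe sets, of the centred log2 ratio to control of each treated array in experiments 1 and 2 (rows) with each treated array in experiment 3 (columns, by label). The column labelled Th1 lies near 0 throughout, and the column labelled Th2 is highest with M/M, at 0.59 and 0.39. The column labelled M/M is highest with Th1, at 0.59 and 0.38.

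C3 had higher mean log2 signals than control with all 3 mixtures, and the differences were larger with Th1 and M/M than with Th2 cytokines. Since these comparisons were used to choose C3 and the other 8 genes, their values are a description, with no p. At M29866_s_at, the brighter of its probe sets (percentile 85.7 of the array by mean log2 signal), the control signals were 615, 96.9 and 94.2 in experiments 1, 2 and 3. Signals were 1039.9, 471 and 297 with Th1 cytokines. With M/M cytokines they were 1188, 259 and 559, and with Th2 cytokines 603, 154 and 308. Each Th1 and M/M array was above the control of its own experiment, whereas with Th2 cytokines this held in experiments 2 and 3, and the ratio in experiment 1 was 0.98. Because controls of experiment 1 were several times as bright as the others, the groups overlapped for every mixture. The log2 fold changes were 1.57 (Th1), 1.65 (M/M) and 0.78 (Th2), each with SE 0.35 (n = 3 experiments). With arrays centred they were 1.41, 1.22 and 0.57, and without experiment 3 they were 1.52, 1.18 and 0.32.

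The other C3 probe set, X52477_at, had larger ratios, set mainly by a control of 11.1 in experiment 2 beside 466 and 87.0 in experiments 1 and 3. Set against its own control, it was 1.98, 37.4 and 2.33 times as bright in experiments 1, 2 and 3 with Th1 cytokines. The same ratios were 2.54, 21.5 and 6.45 with M/M cytokines, and 1.32, 9.43 and 3.87 with Th2 cytokines. All 9 treated arrays were thus above their own control at this probe set, and the log2 fold changes were 2.48, 2.82 and 1.86 (SE 0.61), or 3.11, 2.89 and 1.82 without experiment 3. Both C3 probe sets correlated at 0.879 over 12 arrays, taken as log2 signals minus the mean of the experiment. This removes the level of each experiment, while the depth of each array within it stays shared by all genes. Between mixtures, M29866_s_at was 0.86 higher on the log2 scale with M/M than with Th2 cytokines (SE 0.35, also 0.86 without experiment 3), while M/M and Th1 cytokines differed by 0.08 (SE 0.35), or by -0.34 without experiment 3.

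The promoters of C3 and Lcn2 are shown because these genes had the highest M/M ratios among the brighter members, and that of C1qb as the brightest member. Each is 300 bases of RefSeq (build GRCr8), from 250 before to 50 after the annotated start, read 5′ to 3′ on the strand of the gene. They lie at chr9:2201290-2201589 (C3), chr3:36081731-36082030 (Lcn2) and chr5:154407778-154408077 (C1qb), all on the minus strand. Capitals mark matches, on either strand, to the NF-kappaB consensus or to the letters TTGCNNAA (C/EBP), TTCNNNGAA (STAT) or GAAANNGAA (IRF), where N is any base.
C3: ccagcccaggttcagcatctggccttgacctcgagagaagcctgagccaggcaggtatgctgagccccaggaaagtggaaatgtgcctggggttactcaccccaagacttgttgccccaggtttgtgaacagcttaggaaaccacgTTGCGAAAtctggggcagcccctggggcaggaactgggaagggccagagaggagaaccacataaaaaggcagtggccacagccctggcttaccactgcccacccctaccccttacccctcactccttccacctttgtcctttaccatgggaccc
Lcn2: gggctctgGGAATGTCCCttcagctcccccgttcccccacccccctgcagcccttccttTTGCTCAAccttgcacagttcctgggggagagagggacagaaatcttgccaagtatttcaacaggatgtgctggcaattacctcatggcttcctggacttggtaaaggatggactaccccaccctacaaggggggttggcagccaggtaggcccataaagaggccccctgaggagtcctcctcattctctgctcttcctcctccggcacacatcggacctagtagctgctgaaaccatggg
C1qb: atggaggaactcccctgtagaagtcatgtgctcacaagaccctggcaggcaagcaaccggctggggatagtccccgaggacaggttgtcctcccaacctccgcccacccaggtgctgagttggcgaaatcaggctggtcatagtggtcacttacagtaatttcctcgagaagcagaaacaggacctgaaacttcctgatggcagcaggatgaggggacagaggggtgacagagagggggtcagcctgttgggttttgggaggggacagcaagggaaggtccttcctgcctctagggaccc

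The C3 window held 1 match, to the C/EBP letters, at position -104 from the start. Lcn2 held an NF-kappaB match at -242 and a C/EBP match at -191. C1qb held no match to these 4 sets of letters, which says only that they are not in this window. Of the other members with an entry, Orm1 had the C/EBP letters at -123, and Serpina3n the STAT letters at -123, and no matches overlapped. In all, 5 of 9 members had an entry. The same letters were found in 4.18 percent (NF-kappaB), 10.6 percent (C/EBP), 8.87 percent (STAT) and 9.71 percent (IRF) of 33469 promoter windows of the same length, and a match is a description of the letters, not a binding site.

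Lcn2 encodes lipocalin 2, a secreted protein that binds bacterial siderophores. Its probe set (percentile 65.8) had control signals of 139, 80.4 and 20.7. With M/M cytokines it had 930, 501 and 16.6, which is 6.68 and 6.23 times control in experiments 1 and 2 and 0.802 times control in experiment 3. With Th2 cytokines the signals were 178, 74.2 and 343, and the ratios 1.27, 0.924 and 16.6. The high Lcn2 arrays were therefore those labelled M/M in experiments 1 and 2 and the one labelled Th2 in experiment 3. With Th1 cytokines the signals were 184, 118 and 6.1. The log2 fold changes were 1.69 for M/M, 1.43 for Th2 and -0.27 for Th1 cytokines, with SE 1.03, the largest error of the 16 probe sets. Without experiment 3 they were 2.69, 0.12 and 0.48, and the difference between M/M and Th2 cytokines went from 0.26 to 2.57. Csf3, the gene for granulocyte colony-stimulating factor, had the pattern most like that of Lcn2 among the named genes of the brighter part of the array (r = 0.916 over 12 arrays). Its signals were 208, 128 and 48.8 with M/M cytokines and 46.0, 42.3 and 127 with Th2 cytokines, beside 38.5, 44.0 and 42.7 in controls. Csf3 too was high in the array labelled Th2 in experiment 3. It was picked as the highest of many correlations over these same arrays, so this sharing is partly due to that choice.

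**Figure D2:**
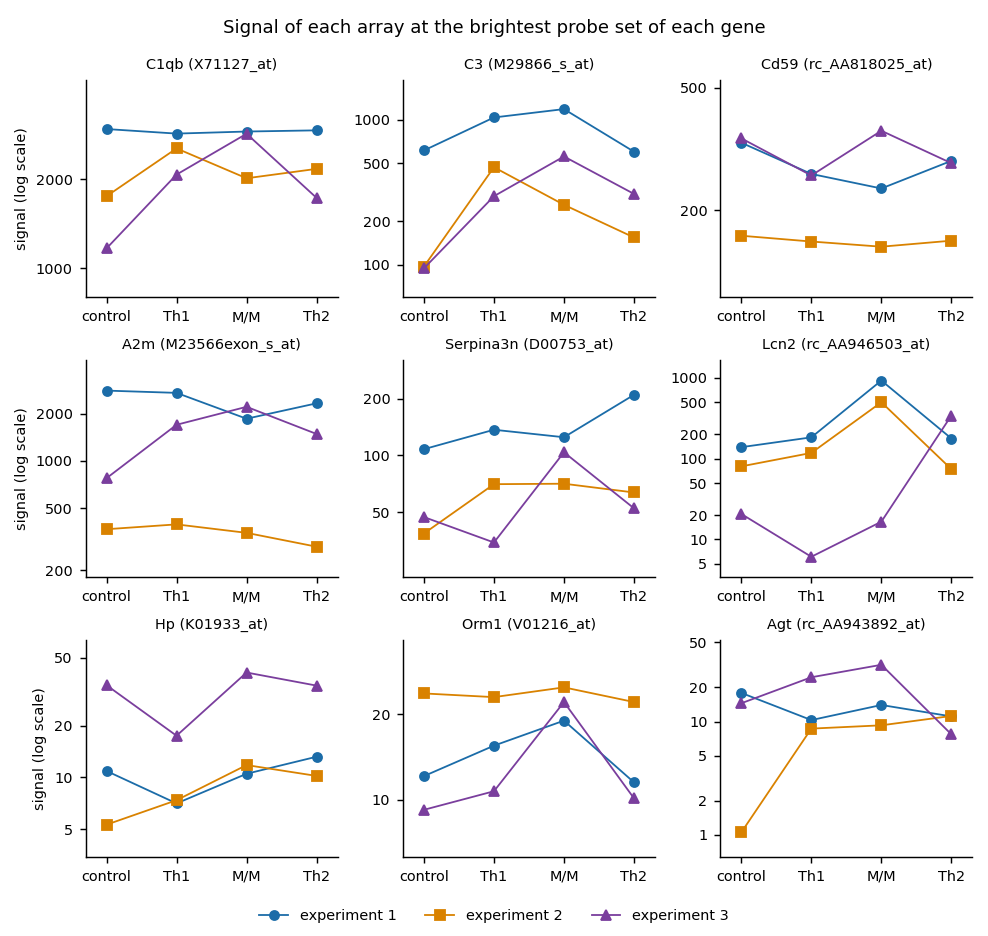
Signal of the brightest probe set of each gene on a log axis, for control, Th1, M/M and Th2 arrays, with 1 line and symbol per experiment. C3 lies above its own control in nearly every treated array, and the highest Lcn2 arrays are M/M in experiments 1 and 2 and the array labelled Th2 in experiment 3.

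Serpina3n, which encodes a secreted serine protease inhibitor, differed less from control. Control signals were 108, 38.5 and 47.1 (percentile 61.0), those with M/M cytokines 125, 70.8 and 104, and those with Th2 cytokines 210, 63.6 and 52.4. Each of these 6 arrays was above its own control. With Th1 cytokines the signals were 137, 70.4 and 34.5, the last below control. The log2 fold changes were 0.75 for M/M, 0.61 for Th2 and 0.26 for Th1 cytokines (SE 0.36), and with arrays centred 0.32, 0.40 and 0.10. Without experiment 3 they were 0.55, 0.85 and 0.61.

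C1qb, for the B chain of C1q, the recognition part of the classical pathway, was the brightest member (percentile 97.8 at X71127_at). Control signals were 2964, 1754 and 1167, and those with M/M cytokines 2907, 2018 and 2857. With Th1 cytokines they were 2860.4, 2548 and 2077, and with Th2 cytokines 2934, 2172 and 1731. Treated arrays stayed at the control level in experiment 1 and were above it in experiments 2 and 3. The log2 fold changes of 0.44, 0.49 and 0.29 for Th1, M/M and Th2 cytokines (SE 0.22) became 0.28, 0.06 and 0.07 with arrays centred, and 0.24, 0.09 and 0.15 without experiment 3. X71127_g_at gave 0.37, 0.41 and 0.25 (SE 0.27), or 0.04, -0.12 and 0.08 without experiment 3, and both probe sets correlated at 0.956 over 12 arrays.

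Cd59 lay slightly below control with each mixture. Its control signals were 331, 165 and 342 (percentile 80.3). They were 262, 158 and 259 with Th1, 235, 152 and 362 with M/M, and 289, 159 and 284 with Th2 cytokines. Of the 9 treated arrays 8 were below their own control, the exception being M/M in experiment 3, and with arrays centred all 9 were. The log2 fold changes were -0.27, -0.18 and -0.17 (SE 0.21), or -0.43, -0.61 and -0.38 with arrays centred, and -0.20, -0.31 and -0.12 without experiment 3.

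A2m encodes alpha-2-macroglobulin, a broad protease inhibitor and a major acute phase protein of the rat. Its 6 probe sets did not give 1 pattern. Their correlations with each other over 12 arrays were between 0.187 and 0.761, and their mean signals were between percentile 17.1 and percentile 94.8. The brightest, M23566exon_s_at, had control signals of 2811, 366 and 775. With M/M cytokines they were 1859, 347 and 2215, below control in experiments 1 and 2 and above it in experiment 3. Its log2 fold changes were 0.40 (Th1), 0.28 (M/M) and 0.10 (Th2), with SE 0.30, and without experiment 3 they were 0.03, -0.34 and -0.32. The dimmest, rc_AI113046_at, had the largest ones, 0.96, 1.26 and 1.32 (SE 0.56), on control signals of only 8.93, 1.1 and 3.5. Without experiment 3 these were 0.84, 1.10 and 1.53. The remaining 4 had log2 fold changes between -0.37 and 0.62, or between -0.86 and 0.58 without experiment 3.

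Hp, Orm1 and Agt were dim, at percentiles 29.9, 32.7 and 25.9, and the files give no detection call. Hp, for the haemoglobin-binding protein haptoglobin, had control signals of 10.9, 5.3 and 34.5, with log2 fold changes of -0.38, 0.45 and 0.41 for Th1, M/M and Th2 cytokines (SE 0.42). Orm1, for the plasma protein orosomucoid, had 12.1, 23.7 and 9.2 in controls and 19.0, 24.9 and 22.1 with M/M cytokines, above control in each experiment. With arrays centred this held in 2 of 3 experiments. Its log2 fold changes were 0.18, 0.66 and -0.01 (SE 0.39), with arrays centred 0.02, 0.23 and -0.22, and without experiment 3 they were 0.16, 0.36 and -0.08. Agt, for angiotensinogen, the precursor of angiotensin peptides and a product of astrocytes, had log2 fold changes of 1.01, 1.31 and 0.60 (SE 0.74). These rest on 1 control, since its control signals were 17.9, 1.05 and 14.5, and the ratios of experiment 2 were 8.25, 8.82 and 10.6. In experiment 1 its ratios were 0.578, 0.783 and 0.619. Without experiment 3 Hp had -0.08, 0.55 and 0.61, and Agt 1.13, 1.39 and 1.36. With arrays centred Hp had -0.54, 0.02 and 0.19, and Agt 0.85, 0.88 and 0.39.

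**Figure D3:**
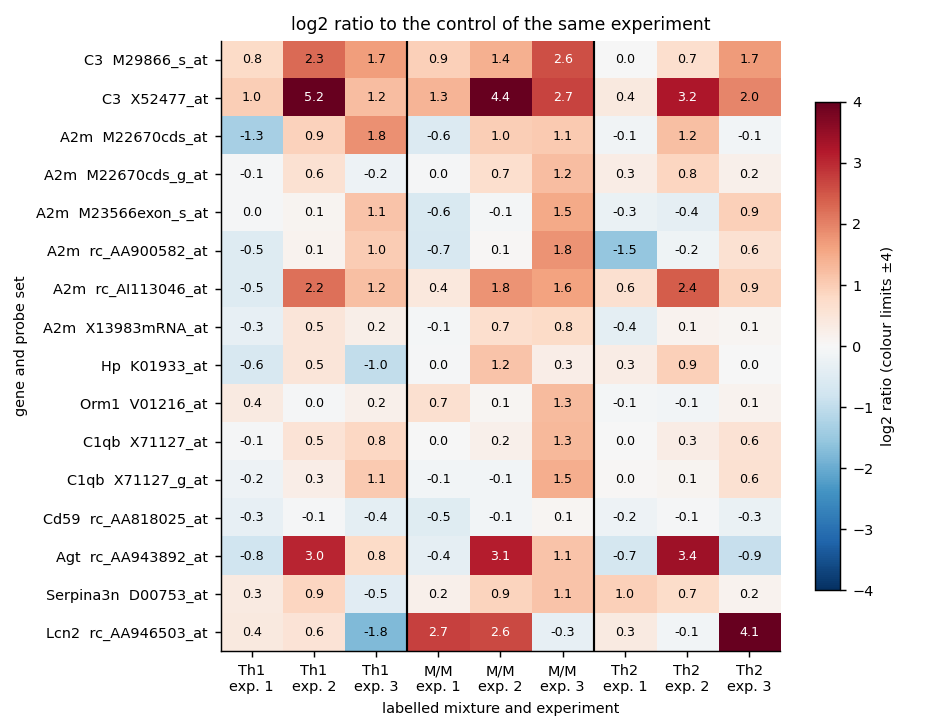
Log2 ratio of each treated array to the control of its experiment for the 16 probe sets (rows), with columns grouped by labelled mixture. X52477_at of C3 is above control in all 9 columns. Agt is high in experiment 2 for every mixture, and Lcn2 is high in M/M of experiments 1 and 2 and in the array labelled Th2 in experiment 3.

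Counts over the 16 probe sets describe the same values, since the comparisons served to choose the genes. By limma with experiment as a block and adjustment over all probe sets, 0 of 16 had an adjusted p under 0.05 for Th1, M/M or Th2 cytokines, while 0.0, 0.263 and 0.0114 percent of all probe sets did. At an unadjusted p under 0.05 the counts were 2 (both of C3), 4 and 3, beside 5.56, 15.9 and 6.75 percent of all. More than 2-fold higher were 3 for Th1 (both of C3, and Agt), 5 for M/M (both of C3, rc_AI113046_at of A2m, Agt and Lcn2) and 3 for Th2 cytokines (X52477_at of C3, rc_AI113046_at of A2m, and Lcn2), beside 5.76, 11.6 and 7.01 percent of all. In experiments 1 and 2 alone these were again 3, 5 and 3, with Agt in place of Lcn2 for Th2 cytokines, beside 9.86, 10.0 and 8.8 percent. Higher than control in 3 of 3 experiments with arrays centred were 2, 4 and 4, beside 11.2, 13.5 and 14.9 percent. Nothing about the members is read from these counts.

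Across the 16 probe sets of the members, 6 of them of A2m, the median was 0.32 (Th1), 0.56 (M/M) and 0.36 (Th2) on the log2 scale, beside 0.14, 0.33 and 0.19 over the whole array. The members were chosen by these comparisons, so their medians are a description, and nothing is read from their distance to the array. With arrays centred the members had 0.16, 0.13 and 0.15 and all probe sets -0.02, -0.10 and -0.03. Without experiment 3 the members had 0.20, 0.34 and 0.23 and all probe sets 0.21, 0.18 and 0.19.

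Among the brightest probe sets of the members, C3 was correlated most with C1qb (0.823), and A2m with C1qb (0.813), again over 12 arrays with the mean of each experiment taken off. Hp and Serpina3n correlated at 0.707, while Lcn2 reached at most 0.421, with Hp. Arrays were not centred for any of these correlations, so differences in array median within an experiment enter them. The genes named next are the highest of many over only 12 arrays, so high values are partly due to that choice. Of all named genes in the brighter part of the array, the pattern most like that of C3 was that of Lrrc59 (0.982) and Mapk7 (0.958). For C1qb these were Prkar1a (0.976) and Psap (0.971), for A2m Hist1h2af (0.95) and Map2k2 (0.94), and for Serpina3n Got1 (0.964) and Adgrl3 (0.942). For Cd59 they were Prkag1 (0.913) and Ctsc (0.90), and for Lcn2, after Csf3, Itga7 (0.906). The dim members had Slc23a3 (0.931) and Fam219b (0.922) for Hp, Cyp2d4 (0.959) and Ugt2b (0.954) for Orm1, and Myo1c (0.963) and Hsd17b4 (0.951) for Agt.

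Other genes of these classes were measured for comparison, 22 of 43 listed complement genes and 35 of 54 listed acute phase genes. Cd14, which encodes a receptor for lipopolysaccharide, rose with M/M cytokines. At AF087943_s_at its signals were 773, 365 and 366 in controls and 3433, 2735 and 2185 with M/M cytokines, so that the groups did not overlap. The log2 fold change was 2.55 (SE 0.47, adjusted p = 0.0486, limma), and 2.67 (SE 0.49, adjusted p = 0.0486) at AF087944mRNA_s_at. Without experiment 3 they were 2.53 (adjusted p = 0.0221) and 2.60 (adjusted p = 0.0222), whereas with arrays centred they were 2.12 (adjusted p = 0.192) and 2.24 (adjusted p = 0.20). The call was also lost without any 1 of the M/M arrays, Th1 replicate 1, control replicate 2 or 3, or experiment 2 (adjusted p from 0.0627 to 0.39). With Th1 cytokines AF087943_s_at had signals of 2722, 2822 and 739 (log2 fold change 1.93, adjusted p = 0.599), and with Th2 cytokines 941, 648 and 1991 (1.19, adjusted p = 0.715). Without Th1 replicate 3, Th2 replicate 3 or experiment 3, Cd14 passed for Th1 cytokines as well, with 82, 7 and 58 of all probe sets passing there. Of the 57 genes in the fit of all 12 arrays, Cd14 with M/M cytokines was the only one to pass in either direction in any mixture. At an unadjusted p under 0.05 the complement list had 1 gene higher and 1 lower with Th1, 5 higher and 1 lower with M/M, and 1 higher with Th2 cytokines, and the acute phase list 2, 9 and 4 higher and 0 lower. Counted as probe sets these were 2, 6 and 1 of 31 for complement and 3, 16 and 6 of 65 for the acute phase list, beside 5.56, 15.9 and 6.75 percent of all probe sets.

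C1r and C1s encode the proteases that C1q carries, and Serping1 the inhibitor of both. These were chosen after their values were seen. C1s had control signals of 182, 12.0 and 51.6, and 364, 118 and 654 with M/M cytokines, each above its own control (log2 fold change 2.65, SE 0.72, adjusted p = 0.142, and 2.15 without experiment 3). With Th1 cytokines C1s had 500, 169 and 38.0, so that in experiment 3 alone it was below control. C1r had 398, 34.2 and 90.4 in controls and 579, 140 and 496 with M/M cytokines (1.68, SE 0.50, adjusted p = 0.171, and 1.29 without experiment 3). Serping1 was 1.31 above control on the log2 scale (SE 0.62, adjusted p = 0.323) with M/M cytokines, with ratios of 1.03, 1.67 and 8.87 in experiments 1, 2 and 3, and 0.39 without experiment 3. Without Th1 replicate 3, C1r and C1s passed for M/M cytokines and C1s for Th1 cytokines, by limma, with 183 and 82 of all probe sets passing there. C3ar1 and C5ar1 encode receptors for the released fragments. C3ar1 had signals of 44.1, 66.2 and 8.2 in controls and 24.9, 29.6 and 4.2 with M/M cytokines (log2 fold change -0.98, SE 0.45, adjusted p = 0.307, and -0.99 without experiment 3), and its log2 fold changes with Th1 and Th2 cytokines were -0.45 and -0.18, or -1.07 and -0.26 without experiment 3. The C5ar1 probe sets disagreed, with -0.53, -0.18 and -0.07 for Th1, M/M and Th2 cytokines at AB003042_at and 0.14, 0.40 and 0.36 at X95990exon_s_at. Without experiment 3 they had -0.86, -0.19 and -0.19, and 0.22, 0.59 and 0.57.

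The brightest complement genes without a call were Clu, C1qbp, Cr1l and C1qc. Clu, which encodes the complement inhibitor clusterin, was 0.50, 0.83 and 0.24 above control on the log2 scale with Th1, M/M and Th2 cytokines, with limma's adjusted p from 0.159 to 0.857, and 0.43, 0.46 and -0.04 without experiment 3. C1qbp, for a C1q-binding protein, had 0.28, 0.35 and 0.19, and the regulator gene Cr1l had -0.05, -0.06 and -0.06 at D42116_s_at. At L36532_s_at Cr1l had 0.06, 0.53 and 0.32. Without experiment 3 these were 0.20, 0.09 and 0.05 for C1qbp. For Cr1l they were -0.12, -0.26 and -0.13 at D42116_s_at, and 0.09, 0.14 and 0.20 at L36532_s_at. C1qc, for another chain of C1q, gave 0.31, -0.02 and -0.01 (rc_AA891576_s_at), or -0.23, -0.53 and -0.22 without experiment 3, and its M/M ratios were 0.66, 0.727 and 2.02. Its dimmer probe sets gave 0.71, 0.20 and -0.23 (rc_AA891576_i_at) and 1.13, 0.52 and -0.67 (rc_AA891576_r_at). Without experiment 3 they gave 0.20, -0.24 and -0.29, and -0.20, -0.62 and -0.0. The brightest acute phase genes without a call were Ttr, Fn1, Cp and Crp. With M/M cytokines Cp, for the copper-carrying ceruloplasmin, had 902, 430 and 374 beside 540, 95.8 and 190 in controls at L33869_at (1.29, SE 0.34, adjusted p = 0.138). The Cp probe sets differed, with 0.24 at Y12178_at and 1.85 at rc_AA817854_s_at. Crp, for C-reactive protein, had 1.14 (SE 0.30, adjusted p = 0.134) at U83119_f_at and 1.35 (SE 0.27, adjusted p = 0.0672) at M13101cds_f_at, and both are probe sets whose probes can read related sequences. A dimmer Crp probe set, rc_AA818144_at, had 1.59 (SE 0.57, adjusted p = 0.234). Fn1, for fibronectin, had 0.93 (SE 0.34, adjusted p = 0.244) at X05834_at, and its other probe sets lay between 0.19 and 1.45. Ttr, for transthyretin, had 0.20 (SE 0.27, adjusted p = 0.738) at rc_AA945169_g_at and 0.01 at rc_AA945169_at. Without experiment 3 the M/M values of Cp were 1.45 (L33869_at), 1.45 (Y12178_at) and 1.55 (rc_AA817854_s_at). Those of Crp were 0.89 (U83119_f_at), 1.06 (M13101cds_f_at) and 1.37 (rc_AA818144_at). Fn1 had 1.08 at X05834_at and between -0.02 and 0.96 at its other probe sets. Ttr had 0.02 at rc_AA945169_g_at and -0.41 at rc_AA945169_at. For M/M cytokines, Cp and Crp passed by limma without Th1 replicate 3 or control replicate 1, and Crp also without Th1 replicate 2. Of all probe sets, 183 passed for M/M cytokines without Th1 replicate 3, 66 without control replicate 1 and 77 without Th1 replicate 2. In the fit of all arrays 23 did. With any other single array or experiment left out, neither Cp nor Crp passed, so these passes depend on which array was left out.

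**Figure D4:**
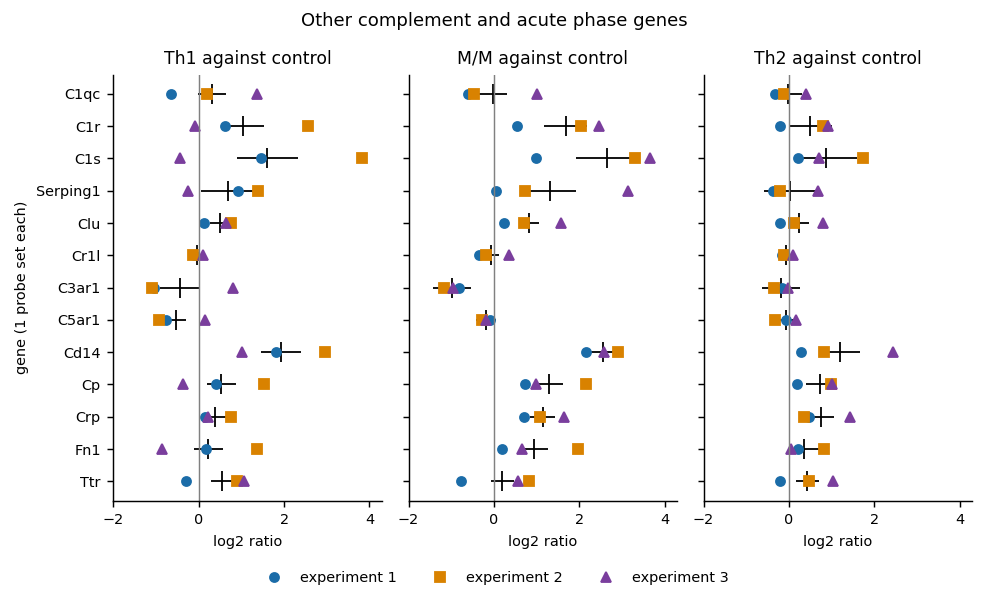
Log2 ratio to control of the same experiment for 13 other genes, 1 probe set each, with symbols for experiments 1, 2 and 3, and a tick and bar for the limma log2 fold change ± SE. With M/M cytokines the 3 Cd14 points lie close together, at 4.44, 7.49 and 5.98 times control, while those of C1s and Serping1 are spread.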

How the data were processed

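RNA of 12 cultures was hybridised to Affymetrix RG-U34A arrays. The deposited values are linear probe-set intensity values (signals) that the authors calculated with dChip; its settings and a normalization between arrays are not given in the sources used here. Those of experiment 3 have 1 decimal and more values below 1. The number of arrays limits the precision. The 59 control probe sets were left out, values below 0.1 were set to 0.1, and log2 was taken. Each mixture was compared with control in 1 fit over 12 arrays (limma 3.58.1, R 4.3.3, lmFit and eBayes with a variance trend; 6 residual degrees of freedom), with experiment as a replicate block and Benjamini-Hochberg adjustment over 8740 probe sets. The methods name separate experiments, each with its own control, and the title code marks the experiment; deviations from group means correlated between 0.439 and 0.708 within an experiment and at most at 0.357 between experiments. Genes were named from the array annotation (7006 probe sets with 1 symbol, 308 with several, 1426 with none). The members and gene lists were chosen with earlier results of these data known. Named were all members, list genes that passed, the 4 brightest others of each list, and the 2 genes of most like pattern per member. C1r, C1s, Serping1, C3ar1 and C5ar1 were added after their values were seen. Alternatives were the block left out or random, centring, quantile normalization, an offset of 16, a floor of 1, the dimmest 25 percent left out, the variance trend left out, the study's screening criteria and its analysis of variance, and each array or experiment left out. Other assays of the study were not analysed here.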

Additional observations from a re-analysis of the deposited data

How the results depend on the processing

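The count of 1 list gene (Cd14) for M/M cytokines became 0 without the replicate block, with arrays centred, with quantile normalization, with a floor of 1, with an offset of 16, without the variance trend, and by the methods' analysis of variance after Benjamini-Hochberg adjustment. It stayed 1, again Cd14, with a random replicate block or without the dimmest 25 percent. By the methods' screening criteria 8 (M/M), 2 (Th1) and 3 (Th2) of the 57 list genes passed, a gene counting where any 1 of its probe sets did. Of the member probe sets 1 of 16 passed, for M/M cytokines. Of all probe sets 6.82, 2.77 and 3.42 percent passed, a share of probe sets that is not comparable with the gene counts. The criteria (2-fold, p under 0.2) were applied here to mean log2 signals in an unpaired analysis of variance, whereas the study's table gives averages of fold changes. With single arrays or experiments left out, the member probe sets that passed numbered 0 to 2 (Th1), 0 to 2 (M/M) and 0 to 0 (Th2), and the list genes 0 to 2, 0 to 5 and 0 to 0, while 0 to 82, 0 to 183 and 0 to 3 of all 8740 probe sets passed. The member counts in this paragraph describe values that served to choose the members, so nothing about a response is read from them. For M/M cytokines Cd14 was lost without M/M replicate 1, 2 or 3, Th1 replicate 1, control replicate 2 or 3, or the whole of experiment 2. The members' median log2 fold change then lay between 0.09 and 0.63 for Th1, 0.34 and 0.93 for M/M, and 0.23 and 0.58 for Th2 cytokines. The causes were not tested. The array labelled Th1 in experiment 3 did not resemble Th1 of the other experiments. The array labelled Th2 there was closer to M/M than to Th2, and the one labelled M/M closer to Th1 than to M/M. With this and 3 arrays a group, small changes could not be resolved, and signals of Hp, Orm1 and Agt were too dim to rank.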
